A study of Mustela putorius furo and Mus musculus with 4 samples.

Results

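Chemokines are small secreted or membrane-bound proteins that guide the movement of cells, and they act through G protein-coupled receptors. In the brain, astrocytes and meningeal cells are known sources of several ligands, and microglia carry several of the receptors. Their names follow the spacing of conserved cysteines near the start of the protein, which gives the CC, CXC and CX3C families, and atypical receptors of the ACKR group bind ligands without the usual G protein signal. The 9 genes described here are 6 ligands (Ccl2, Cxcl10, Cxcl12, Cxcl14, Cxcl16 and Cx3cl1) and 3 receptors (Cx3cr1, Cxcr4 and Ackr3). They were taken by name, with case ignored, from the expression values of cultured ferret and mouse astrocytes. Of the 9 genes, 8 had values in both species, among 13373 symbols that both species shared. Cxcl16 had values in the mouse and was not analysed in the ferret, whose values used here hold no row of that name.

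The cells were primary astrocytes of the neonatal cerebral cortex, with 2 libraries of ferret (Mustela putorius furo, postnatal day 1) and 2 libraries of ICR mouse (postnatal day 1 to 3). The labels name no transgene and no drug treatment for either species. Both were grown for 14 days as mixed glia in serum-containing medium (10%), shaken to remove loosely attached cells, replated and, by the methods of the study, kept without serum for the last days before RNA was taken. That serum-free medium held heparin-binding EGF-like growth factor. The cells of a single ferret pup were spread over several flasks, whereas several mouse pups were pooled in each flask. No source used here says whether the duplicates came from separate cultures, so the p-values measure the spread between these libraries, which may be technical.

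Levels were given as FPKM (fragments scaled to exon length and library size), and the deposited files hold no counts. The read counts of the study are in a supplement of its paper and were not used here, so no counting interval is given. Differences are ferret minus mouse on the log2(FPKM + 1) scale, which understates the change of low genes, and were tested with limma over 10204 shared genes with a mean of at least 1 FPKM in either species. A gene was called if its BH-adjusted p (Benjamini-Hochberg) was under 0.05 and its log2 difference exceeded 1 in either direction. Over all tested genes the median log2 difference was -0.35, and it moved to -0.01 when each library was scaled so that its shared symbols summed to the 4-library mean. Each species was quantified on its own gene models, so species, annotation and culture cannot be told apart. An exact two-sided permutation test of 2 libraries against 2 cannot give a p under 0.333 for a single gene. The labelled cell type was checked by its markers. Gfap, the astrocyte intermediate filament, was at 1481 and 1522 FPKM in the ferret and at 1429 and 1546 FPKM in the mouse libraries. Of 11 astrocyte markers, 1 was called higher and 7 lower in ferret, and Slc1a2 reached only 0.133 and 0.178 FPKM there against 47.1 and 51.8 FPKM in mouse.

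The leading chemokine genes differed between the species. In the ferret libraries Ccl2, Cx3cl1 and the receptor Cxcr4 were higher, and in the mouse libraries Cxcl14, Cxcl12 and the receptors Ackr3 and Cx3cr1 were higher. Of the 7 genes that passed the filter on low values, 3 were called higher in ferret, against 13.1% of all tested genes, and 4 were called lower, against 30.1% of all tested genes. Cxcl12 and Cx3cr1 passed that filter only through their mouse level, which favours genes that differ. Cxcl10 was under 1 FPKM on average in both species and did not enter that fit. For all 8 genes with values in both species the libraries of ferret and mouse did not overlap. Separation of the species was common, since 9040 of the 10204 tested genes had a BH-adjusted p under 0.05 (limma). The share of all genes without overlap was not computed. Each of the 7 calls held under all 13 alternative settings.

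**Figure D1:**
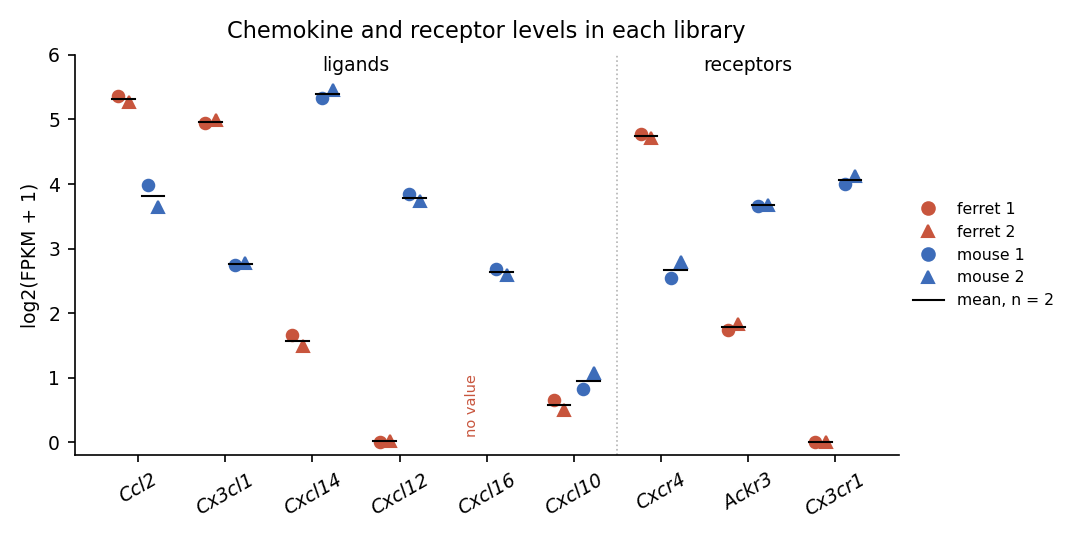
Level of each gene in each library, as log2(FPKM + 1), with ferret libraries in red, mouse libraries in blue, circles and triangles for replicates 1 and 2, and a black bar for the mean of 2 libraries. Ccl2, Cx3cl1 and Cxcr4 lie higher in ferret, the other genes with values in both species lie higher in mouse, and Cxcl16 has values in mouse alone.

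Ccl2 encodes a CC chemokine that attracts monocytes and was the most abundant of these genes in the ferret libraries. Its level was 40.3 and 37.8 FPKM in the ferret libraries against 14.9 and 11.5 FPKM in the mouse libraries. Both ferret libraries stood above both mouse libraries by more than the duplicates differed. The means were 13.2 ± 2.40 FPKM (SD, n = 2) for mouse and 39.01 ± 1.78 FPKM (SD, n = 2) for ferret, a ratio of 2.95. The log2 difference was 1.502 (SE 0.10, limma, BH-adjusted p = 3.12e-07). Ccl2 stood above 91.3% and 90.3% of the shared genes in the ferret libraries and above 68.7% and 62.2% in the mouse libraries. Its classical receptor Ccr2 was at or near 0 throughout, with 0 and 0.00821 FPKM in ferret and 0.0311 and 0.0413 FPKM in mouse. The RefSeq annotation of another ferret assembly names 0 genes CCL2. Whether the ferret row of that name is the counterpart of mouse Ccl2 was not tested.

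Cx3cl1 encodes fractalkine, a membrane-anchored ligand with a mucin-like stalk that neurons are best known to carry. Its level was 29.8 and 30.7 FPKM in the ferret libraries against 5.68 and 5.82 FPKM in the mouse libraries. The duplicates of both species lay close together and far from the other species. The ratio of the means was 5.26, and the log2 difference was 2.21 (SE 0.06, limma, BH-adjusted p = 7.24e-10). The sheddases that release it from the membrane, Adam10 and Adam17, were abundant in both species and were not called. Adam10 was at 39.1 and 40.4 FPKM in ferret and at 46.5 and 44.8 FPKM in mouse, and Adam17 was at 14.4 and 15.0 FPKM in ferret and at 18.5 and 18.6 FPKM in mouse. Of 3 neuronal markers tested, 2 were called higher in ferret, as Cx3cl1 was, and 0 lower. Dcx, a gene of migrating young neurons, was at 1.66 and 1.25 FPKM in ferret and at 0.0150 and 0.0412 FPKM in mouse, and Syt1, a synaptic vesicle gene, was at 5.11 and 4.94 FPKM in ferret and at 1.12 and 1.25 FPKM in mouse. Map2, a microtubule gene, was not called, at 18.8 and 19.0 FPKM in ferret and at 30.4 and 31.3 FPKM in mouse. The 5 neuronal markers with values in both species summed to 26.3 and 25.9 FPKM in ferret and to 31.9 and 33.2 FPKM in mouse. Stmn2, of the same list, was at 124 and 127 FPKM in mouse. It had no value in ferret and was not compared. Rbfox3, a gene of mature neurons, was at or under 0.0839 FPKM in each library. The part of neurons in the difference of Cx3cl1 was not tested.

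Cx3cr1 encodes the receptor of fractalkine, which in the brain is a microglial gene. It was listed at 0 in both ferret libraries and stood at 15.0 and 16.5 FPKM in the mouse libraries, above 68.8% and 70.9% of the shared genes. The fitted log2 difference was -4.06 (SE 0.08, limma, BH-adjusted p = 7.29e-11), a value that is set in part by the pseudocount and reached -7.31 with a pseudocount of 0.1. An exact 0 can be a failed estimate, and 1072 shared symbols were listed at 0 in both ferret libraries. Of these, 14 had a mean of at least 10 FPKM in mouse, Cx3cr1 among them, out of 5499 shared symbols at that mouse level. In a bulk library fewer cells of a type and less RNA per cell cannot be told apart. Of the fractalkine pair, ferret libraries therefore held the ligand with the receptor listed at 0, whereas in the mouse libraries the ligand's FPKM was 0.378 and 0.354 of the receptor's.

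The microglial marker list moved with Cx3cr1. Of 18 markers tested, 17 were called lower in ferret and 0 higher, with a median log2 difference of -4.70, and their summed level was 78.6 and 78.0 FPKM in the ferret libraries against 1061 and 1035 FPKM in the mouse libraries. Csf1r, the receptor for the survival factor of microglia, was at 0.233 and 0.296 FPKM in ferret and at 33.6 and 30.6 FPKM in mouse. Aif1, which encodes Iba1, was at 0.0495 and 0.0465 FPKM in ferret and at 12.6 and 10.6 FPKM in mouse. Trem2 was at 1.04 and 0.511 FPKM in ferret and at 45.9 and 43.0 FPKM in mouse. Itgam, Ptprc and P2ry12 were at or under 0.0343 FPKM in each ferret library, and Tmem119 was at 4.01 and 3.67 FPKM in ferret against 13.3 and 12.5 FPKM in mouse. Ly86 was listed at 0 in both ferret libraries. The part of microglia in the difference of Cx3cr1 was not tested.

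Cxcl12 encodes the ligand of both Cxcr4 and Ackr3, which directs the migration of neural and blood-forming progenitors. Its level was 0.00805 and 0.00944 FPKM in the ferret libraries against 13.3 and 12.3 FPKM in the mouse libraries. Ferret libraries were close to 0, and mouse libraries stood above 65.9% and 63.7% of the shared genes. The log2 difference was -3.77 (SE 0.08, limma, BH-adjusted p = 1.02e-10), and it reached -6.89 with a pseudocount of 0.1. The ferret values had a ratio of 0.853 between replicate 1 and replicate 2. This was also the commonest ratio among 398 pairs of ferret values under 0.05 FPKM, shared by 134 pairs, as the same small number of fragments in both libraries would give. Only 16 shared symbols had a mean under 0.01 FPKM in ferret and of at least 10 FPKM in mouse, Cxcl12 and Cx3cr1 among them. Whether the ferret gene model covers the transcribed exons was not tested.

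Cxcr4 encodes the signalling receptor of Cxcl12 and was higher in ferret, where its ligand was near 0. Its level was 26.3 and 25.4 FPKM in the ferret libraries against 4.81 and 5.96 FPKM in the mouse libraries. The ratio of the means was 4.80, and the log2 difference was 2.08 (SE 0.09, limma, BH-adjusted p = 1.02e-08). Ackr3 encodes the atypical receptor that takes up and clears Cxcl12, and it differed in the opposite direction. Its level was 2.35 and 2.57 FPKM in the ferret libraries against 11.7 and 11.8 FPKM in mouse, and its log2 difference was -1.88 (SE 0.07, limma, BH-adjusted p = 5.63e-09). Within a library, where scaling between libraries has no effect, the FPKM of Cxcr4 was 11.2 and 9.87 times that of Ackr3 in ferret and 0.413 and 0.506 times that of Ackr3 in mouse. The FPKM of Cxcl12 was 2.77 and 2.06 times that of Cxcr4 in the mouse libraries and 0.000306 and 0.000372 times in the ferret libraries. Of 8 tested oligodendrocyte lineage markers, 3 were called higher in ferret, as Cxcr4 was, 0 lower and 5 not called. Of all tested genes, 13.1% were called higher and 30.1% lower. Sox10, of those called, passed the filter only through ferret. Olig1, of the same list, was at 107 and 117 FPKM in mouse. It had no value in ferret and was not compared. The part of other cell types in the difference of Cxcr4 was not tested.

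Cxcl14 encodes a CXC chemokine found in many epithelia and in the brain, and it was the most abundant of these genes in the mouse libraries. Its level was 39.4 and 42.8 FPKM in the mouse libraries and 2.15 and 1.80 FPKM in the ferret libraries. The mouse mean was 20.9 times the ferret mean, and the log2 difference was -3.83 (SE 0.08, limma, BH-adjusted p = 1.16e-10). Cxcl14 stood above 87.9% and 88.7% of the shared genes in mouse and above 38.3% and 36.4% in ferret.

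Markers of meningeal fibroblasts, cells that can accompany cortical cultures and can express Cxcl12 and Cxcl14, differed in the same direction as these genes. All 12 tested markers of that list were called lower in ferret, with a median log2 difference of -3.17 and a summed level of 138 and 122 FPKM in ferret against 1780 and 1757 FPKM in mouse. Among them, Col3a1 was at 1.60 and 1.43 FPKM in ferret and at 402 and 375 FPKM in mouse, while Slc6a13 was listed at 0 in both mouse libraries. Endothelial markers summed to 0.790 and 0.801 FPKM in ferret and to 28.3 and 28.9 FPKM in mouse, of which Cdh5 held 22.0 and 22.5 FPKM, a gene listed at 0 in ferret. Pecam1 was listed at 0 in ferret and at 0.0407 and 0.0312 FPKM in mouse, and all 3 tested endothelial markers were called lower. Of the 3 tested pericyte markers, 2 were called lower and 1 higher. The part of these cells in the differences of Cxcl12 and Cxcl14 was not tested.

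Cxcl10 encodes an interferon-induced chemokine and was low in all libraries, at 0.573 and 0.416 FPKM in ferret and at 0.780 and 1.10 FPKM in mouse. Both mouse libraries were above both ferret libraries, by a margin smaller than the difference between the mouse duplicates. In a fit of all 13373 shared genes without the filter the log2 difference was -0.37 (SE 0.11, limma, BH-adjusted p = 0.0546), and the gene was not called. Its receptor Cxcr3 was at 0.0160 and 0.0188 FPKM in ferret and at 0.149 and 0.0621 FPKM in mouse. Cxcl16 encodes a transmembrane chemokine that binds Cxcr6. It was at 5.46 and 5.003 FPKM in the mouse libraries, with Cxcr6 at 2.01 and 2.19 FPKM. The RefSeq annotation of another ferret assembly (ASM1176430v1.1) names 1 gene CXCL16. Neither Cxcl16 nor Cxcr6 was analysed in ferret, so the pair was not compared.

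The order of the levels also differed between the species. In the ferret libraries the order of the mean FPKM was Ccl2, Cx3cl1, Cxcr4, Ackr3, Cxcl14, Cxcl10, Cxcl12 and Cx3cr1, and no neighbours in that order had overlapping values. In the mouse libraries the order was Cxcl14, Cx3cr1, Ccl2, Cxcl12, Ackr3, Cx3cl1, Cxcr4, Cxcl16 and Cxcl10. There the values of Ccl2 and Cxcl12, of Cx3cl1 and Cxcr4, and of Cxcr4 and Cxcl16 overlapped, so these neighbours did not differ beyond their spread. The 5 ligands with values in both species had sums of 74.1 and 73.5 FPKM in mouse and of 72.8 and 70.7 FPKM in ferret. The composition was different. Ccl2 made up 55.3% and 53.4% and Cx3cl1 40.9% and 43.4% of the ferret sums, whereas Cxcl14 made up 53.2% and 58.2%, Ccl2 20.1% and 15.7%, Cxcl12 18.0% and 16.7% and Cx3cl1 7.66% and 7.92% of the mouse sums. The 3 receptors summed to 28.7 and 27.9 FPKM in ferret, of which Cxcr4 held 91.8% and 90.8%. In mouse they summed to 31.5 and 34.2 FPKM, of which Cx3cr1 held 47.7% and 48.1%, Ackr3 37.0% and 34.4% and Cxcr4 15.3% and 17.4%. The sums of the species depend on the scaling between libraries, and the shares within a library do not.

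**Figure D2:**
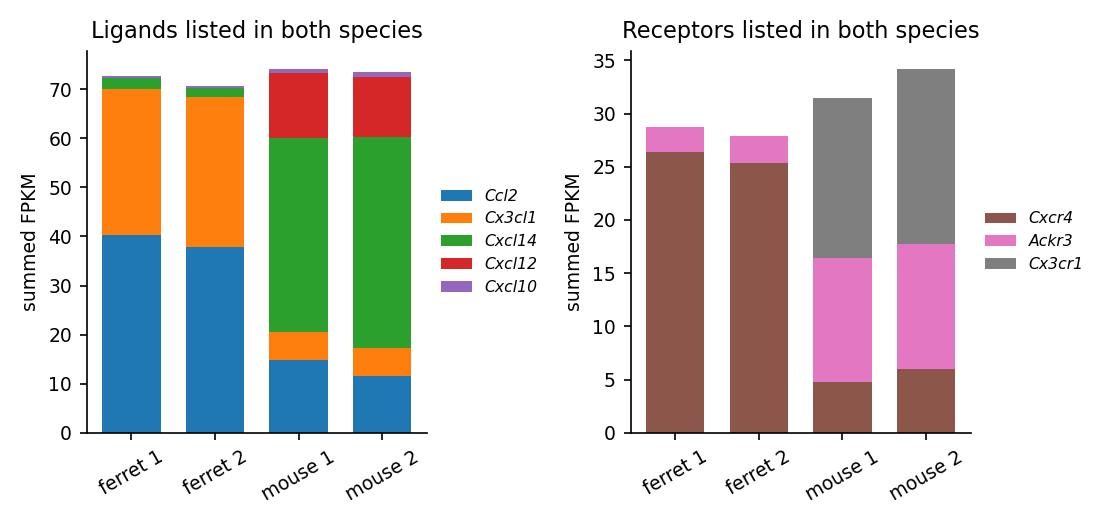
Stacked FPKM of the 5 ligands (left) and 3 receptors (right) with values in both species, for each of the 4 libraries, with both axes starting at 0. The ligand sums lie between 70.7 and 74.1 FPKM, with Ccl2 and Cx3cl1 filling the ferret bars and Cxcl14, Ccl2 and Cxcl12 most of the mouse bars, while Cxcr4 fills most of the ferret receptor bars.

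The scaling between libraries moved the size of these differences, and the 7 called genes kept their direction. When each library was scaled to the 4-library mean sum, the log2 differences were 1.88 for Ccl2, 2.57 for Cx3cl1, 2.43 for Cxcr4, -3.51 for Cxcl14, -3.60 for Cxcl12, -1.56 for Ackr3 and -3.89 for Cx3cr1. Cxcl10 moved between -0.07 after quantile normalization and -0.80 with a pseudocount of 0.1 and was not called under any of these settings.

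**Figure D3:**
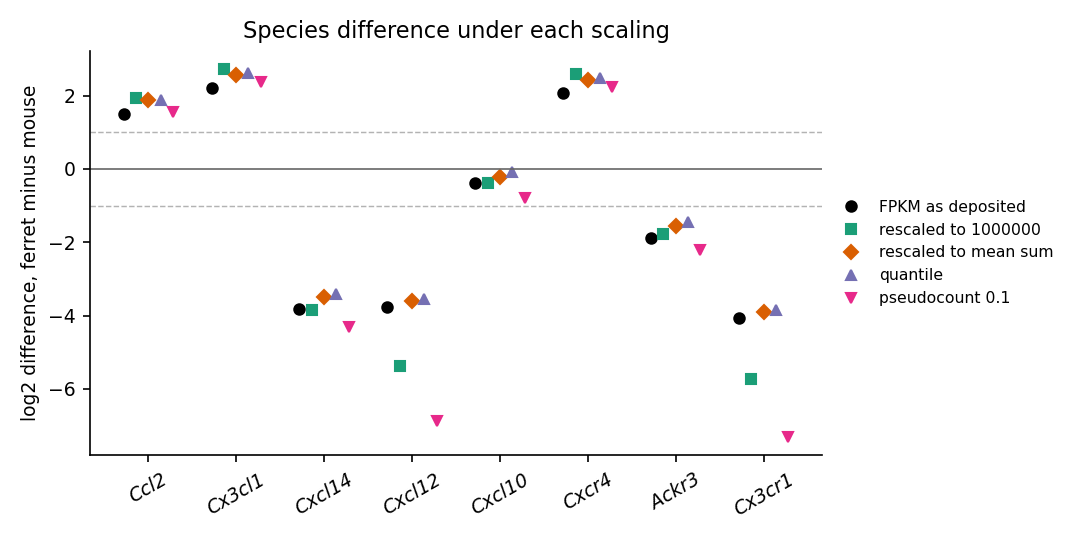
Log2 difference (ferret minus mouse) of the 8 genes with values in both species, with FPKM as deposited (black, with standard errors that are mostly smaller than the symbols) and under 3 scalings and a smaller pseudocount (colours), and dashed lines at the limit of 1 in either direction. The 7 called genes stay beyond the dashed lines, Cxcl10 stays between them, and Cxcl12 and Cx3cr1 move furthest with the pseudocount.

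Other chemokines and receptors were mostly low or were named in a single species. Of 58 further genes of the family, 27 had values in both species, 28 in mouse alone and 2 in ferret alone, and 6 of the shared genes passed the filter. Of these, 2 were called higher and 4 lower in ferret, against 13.1% and 30.1% of all tested genes. Of those named below, all but Ccl7 passed the filter only through the species with the higher level, which favours genes that differ. Ccl17, a ligand of Ccr4, was at 2.24 and 3.002 FPKM in ferret and at 0.0774 and 0.0650 FPKM in mouse, a log2 difference of 1.75 (SE 0.10, limma, BH-adjusted p = 1.10e-07). Ackr1, a receptor that takes up many inflammatory chemokines, was at 3.80 and 4.15 FPKM in ferret and at 0.640 and 0.569 FPKM in mouse, a log2 difference of 1.63 (SE 0.08, limma, BH-adjusted p = 2.59e-08). Ccl7, a monocyte attractant encoded beside Ccl2, was lower in ferret although Ccl2 was higher. Its level was 1.13 and 1.29 FPKM in ferret and 9.98 and 9.69 FPKM in mouse, a log2 difference of -2.29 (SE 0.08, limma, BH-adjusted p = 1.91e-09). The FPKM of Ccl2 was 35.6 and 29.3 times that of Ccl7 in the ferret libraries against 1.49 and 1.19 times in the mouse libraries. The receptor Ccr1, which binds inflammatory CC chemokines, was at 0.385 and 0.188 FPKM in ferret and at 2.07 and 2.04 FPKM in mouse, a log2 difference of -1.25 (SE 0.09, limma, BH-adjusted p = 5.14e-07). Ccl5, a ligand of Ccr1, was at 1.18 and 1.49 FPKM in mouse and at 0.146 and 0.129 FPKM in ferret, a log2 difference of -1.04. The call of Ccl5 was lost without mouse replicate 2, at -0.94, and with scaling to the 4-library mean sum, at -0.91, and the calls of Ccl5 and Ccr1 were lost after quantile normalization, at -0.79 and -0.95.

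Of 26 tested genes that process chemokines or carry the receptor signal, 2 were called higher in ferret (13.1% of all tested genes were), 7 were called lower (30.1% of all tested genes were), 17 were not called, and the median log2 difference of -0.35 was that of all tested genes. Both genes called higher encode matrix metalloproteinases that can cut chemokines. Mmp2 was at 284 and 320 FPKM in ferret and at 71.6 and 72.9 FPKM in mouse, a log2 difference of 2.04 (SE 0.07, limma, BH-adjusted p = 1.85e-09), and Mmp9 had a log2 difference of 1.26 at levels of 1.72 and 1.497 FPKM in ferret. Lower in ferret were Rac2, a small GTPase of blood-derived cells, at 1.51 and 1.77 FPKM against 13.3 and 13.7 FPKM in mouse, Arrb1, a beta-arrestin that couples to Ackr3 and Cxcr4, at 1.33 and 1.14 FPKM against 7.76 and 6.98 FPKM, the syndecan Sdc1, and Pik3cg, a lipid kinase downstream of chemokine receptors in blood cells. Their log2 differences were -2.46, -1.91, -1.67 and -1.43. The inhibitory G protein gene Gnai2, through which Cxcr4 and Cx3cr1 signal, was abundant in all libraries, at 217 and 235 FPKM in ferret and 301 and 320 FPKM in mouse, and was not called (log2 difference -0.46).

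Of 28 tested receptors and factors known to induce chemokine genes, 13 were called lower in ferret and 1 higher, with a median log2 difference of -0.95. Calls over all tested genes also ran lower more often than higher, at 30.1% against 13.1%. With scaling to the 4-library mean sum, 8 were called lower and 2 higher. The largest differences in this list were those of Tlr4, the endotoxin receptor, at 0.264 and 0.334 FPKM in ferret and 8.33 and 8.13 FPKM in mouse, and of Tlr3, the receptor for double-stranded RNA, at 3.56 and 3.46 FPKM in ferret and 18.1 and 16.9 FPKM in mouse. Nfkb1, at 3.19 and 3.13 FPKM in ferret and 16.0 and 15.6 FPKM in mouse, and Ikbkg, at 5.81 and 6.72 FPKM in ferret and 25.1 and 26.3 FPKM in mouse, belong to the NF-kB pathway that drives Ccl2. Their log2 differences were -2.01 and -1.88. Irf1, which drives Cxcl10, was not called, with a log2 difference of 0.04. Hif1a, a hypoxia factor known to induce Cxcr4, was the gene called higher. Its level was 85.1 and 82.7 FPKM in ferret and 20.6 and 20.2 FPKM in mouse, a log2 difference of 1.99 (SE 0.06, limma, BH-adjusted p = 7.02e-10). These are RNA levels, and the part of these receptors and factors in the levels of Ccl2, Cxcl10 and Cxcr4 was not tested.

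**Figure D4:**
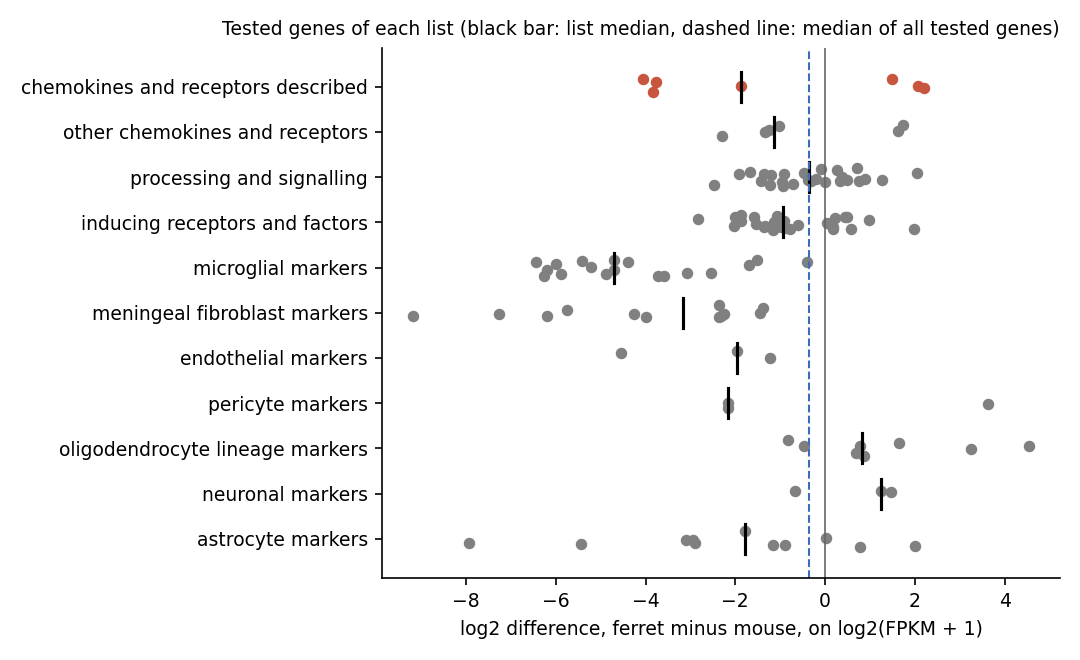
Log2 difference (ferret minus mouse) of each tested gene of the 9 genes described and of 10 other lists, with 1 point per gene, a black bar at the median of each list and a dashed line at the median of all tested genes, -0.35. The chemokines and receptors fall on both sides of 0, whereas all but 1 of the microglial markers and all 12 meningeal fibroblast markers lie below -1.

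The mouse genes lie on separate chromosomes, except that Ccl2 and Cxcl16 share chromosome 11 and Cxcr4 and Ackr3 share chromosome 1. In GENCODE M21 on GRCm38, the build used by the study, Ccl2 lies on chromosome 11 from 82035571 to 82037453 on the plus strand and Cxcl16 from 70453983 to 70459984 on the minus strand. Cxcr4 is found on the minus strand of chromosome 1 from 128588199 to 128592293 and Ackr3 from 90203980 to 90216751 on the plus strand. Cxcl12 lies on chromosome 6 from 117168535 to 117181367 on the plus strand and Cxcl14 on the minus strand of chromosome 13 from 56288643 to 56296551. Cx3cl1 lies on chromosome 8 from 94772009 to 94782427 on the plus strand, and Cxcl10 on the minus strand of chromosome 5 from 92346638 to 92348889. Cx3cr1 spans 119901616 to 120069879 on the minus strand of chromosome 9, a range in which 9 other genes are annotated, among them Wdr48 at 19.5 and 19.3 FPKM and Gorasp1 at 9.71 and 10.6 FPKM in mouse. Cxcl10 overlaps Art3 on the opposite strand, which was at 2.87 and 2.38 FPKM in mouse, above Cxcl10 itself. These overlaps are of whole gene spans with their introns, and overlap of exons was not checked. The kit marks strand, and no source used here says whether the quantification used it. Whether any reads of these overlapping genes were confused is therefore not known. Ccl2 overlaps Gm17268, which was listed at 0 in both mouse libraries, and Cxcl16 overlaps Zmynd15, at 0.412 and 0.544 FPKM. Cxcl12, Cxcl14, Cx3cl1, Cxcr4 and Ackr3 overlap no other annotated gene. No ferret coordinates were used here.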

How the data were processed

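RNA was measured in 2 ferret and 2 mouse astrocyte libraries, polyA-selected and strand-marked. The authors aligned reads with STAR 2.7.0f to the Ensembl genome of each species and deposited FPKM per gene from Cufflinks 2.2.1, unfiltered and unpooled. From these values, symbols were matched in upper case. Where a symbol had several rows, that with the highest species mean was used. FPKM was set to log2(FPKM + 1), and species were compared with limma 3.58.1 (R 4.3.3), using its trended empirical Bayes variance and Benjamini-Hochberg adjustment, after a check on simulated data. Alternatives were a pseudocount of 0.1, no filter, rescaling to 1000000 or to the mean sum, quantile normalization, summed or first rows, no variance trend, a replicate block and each library left out. The filter used FPKM as deposited throughout.

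The 9 genes and all lists were chosen with earlier results of these data known. Of the wider family, genes with a mean of at least 1 FPKM were named, except a gene not reported here, and of the processing and inducer lists up to 4 called genes per direction with the largest differences. Ccr2, Cxcr3, Adam10, Adam17, Gnai2, Irf1, Ccl22, the chemokines of a single species and the marker genes other than the defining microglial ones were singled out after their values were seen. Oligodendrocyte lineage markers (3 of 8 tested higher, 0 lower) and neuronal markers (2 of 3 higher, 0 lower) were also listed.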

Additional observations from a re-analysis of the deposited data

How the results depend on the processing

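The counts of 3 chemokine genes called higher and 4 called lower were the same in all 13 alternative settings, and no value reversed. With a library left out, the log2 difference ranged from 1.33 to 1.68 for Ccl2, 2.19 to 2.23 for Cx3cl1, 1.95 to 2.21 for Cxcr4, -3.91 to -3.74 for Cxcl14, -3.83 to -3.72 for Cxcl12, -1.93 to -1.83 for Ackr3, -4.13 to -4.00 for Cx3cr1 and -0.49 to -0.25 for Cxcl10. The lone library of a species is then assumed to vary like the others. The other lists depended on scaling. After quantile normalization 2 genes of the wider family, 4 of the processing and signalling list and 8 of the inducer list were called lower, and 8 of the inducer list with rescaling to the mean of the sums. Genes called higher numbered 5 in the processing and signalling list under either rescaling and after quantile normalization, and 2 in the inducer list under these settings and with a pseudocount of 0.1, in place of 2 and 1. With a library left out, 1 to 2 genes of the inducer list were called higher, Traf6 being added without ferret replicate 1. Over all genes, 2197 were called higher after rescaling to 1000000 and 2080 after quantile normalization, against 1336. Calls of all genes split into 1336 higher and 3069 lower as deposited, 1954 and 2215 after rescaling to the mean sum. The replicate numbers pair no animals, and the deviations of same-numbered libraries correlated at 0.01 over 10204 genes. With the replicate block, 1342 genes were called higher and 3072 lower, and 3 and 4 of the chemokine genes. The read counts of the study were not used here, so levels near 0, such as those of Cxcl12 and Cx3cr1 in ferret, are given without an interval, and their differences depend on the pseudocount.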

Other observations

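Several chemokine genes had values in the mouse alone and were not compared. Ccl6 was at 44.3 and 35.4 FPKM and Pf4 at 40.9 and 35.4 FPKM in the mouse libraries, levels near that of Cxcl14, the highest of the compared ligands there. Ccl9 was at 15.9 and 13.6 FPKM, Ccl3 at 5.01 and 5.05 FPKM, Ccl4 at 4.66 and 4.51 FPKM and Ccl12 at 3.73 and 4.05 FPKM. Ccl6, Ccl9, Ccl3, Ccl4 and Pf4 are known from microglia and macrophages, and the microglial markers of the mouse libraries summed to 1061 and 1035 FPKM. Their source was not tested. Ccl27a, at 8.62 and 10.7 FPKM, and Ccl25, at 4.39 and 3.86 FPKM, are named with no such link to microglia.

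In the ferret libraries, Cxcl8, a neutrophil attractant for which the mouse values hold no row, was at 0.886 and 1.04 FPKM, and Ccl21 at 0.218 and 0.383 FPKM. Ccl22, which like Ccl17 binds Ccr4, was at 0.515 and 0.434 FPKM in ferret and listed at 0 in both mouse libraries.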
